A study of Mus musculus with 24 samples.

Results

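The Hedgehog signaling genes Shh, Ihh, Dhh, Ptch1, Smo, Gli1, Gli2, Gli3 and Hhip were followed in lacrimal glands of androgen-treated autoimmune mice. Every CodeLink (CL) and Affymetrix (Affy) probe annotated to 1 of these 9 genes was taken, which gave 22 probes, 8 on CL and 14 on Affy, among 14182 genes that carried a named probe on at least 1 platform. The genes were brought together because the CL probe for Ptch1 rose with treatment, so the treatment values of Ptch1 are given as a description with no test, and the remaining members were chosen by pathway and not by their values.

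Exorbital lacrimal glands came from adult female MRL/lpr and NOD mice that carried a subcutaneous pellet of placebo (P) or testosterone (T). The lpr mutation disrupts Fas, a death receptor of lymphocytes, and NOD mice develop autoimmune diabetes and gland inflammation, so both strains are autoimmune and neither is a healthy control. The 4 groups, MRL/lpr P, MRL/lpr T, NOD P and NOD T, held 3 pools each, of 6 mice per MRL/lpr pool and 2 to 4 mice per NOD pool, and each pool was measured on 1 CL and 1 Affy array. Per the labels MRL/lpr mice carried the pellet for 18 days and NOD mice for 21 days, whereas the methods give both strains one range of treatment days that does not include the shorter of these, so whether the strains differed in length of treatment is not settled. Per the methods the NOD mice were older, and strain cannot be told apart from age and pool size.

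Hedgehog proteins are secreted ligands. In their absence the receptor Ptch1 holds the membrane protein Smo inactive, and ligand binding to Ptch1 frees Smo, which acts through the primary cilium on the Gli transcription factors. Gli1, Ptch1 and Hhip are themselves transcribed in response to the signal in many mouse tissues, and Ptch1 and Hhip then bind ligand and damp the pathway. A rise in signaling is therefore usually read from these 3 genes together.

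The CL probe for Ptch1 was at most 2.46 in the P pools and at least 76.6 in the T pools of both strains, whereas neither Affy probe set for Ptch1 rose. Among the other members, Gli1 was higher with T in NOD glands on CL by a log2 change of 0.78, and Smo was lower with T in NOD glands on Affy by a log2 change of 1.24. In MRL/lpr glands no other member was called on either platform. The ligands, Gli2, Gli3 and Hhip lay at or near the background of the arrays.

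A CL signal is a spot intensity relative to the array, with a typical spot near 1, and 0.5 was used as the floor. An Affy signal is a probe set intensity scaled to a trimmed mean of 500 on each array, with a floor of 70.5. Signals below the floor were raised to it before log2 values were taken, so the log2 change of a dim gene is compressed. A gene was called when the adjusted p of limma, over all probes of the platform, was below 0.05. On CL 12.5% of 13614 probes were called for T in MRL/lpr (6.89% higher, 5.65% lower) and 16.5% in NOD glands (7.87% higher, 8.6% lower). On Affy the shares of 17891 sets were 6.9% (3.32% higher, 3.58% lower) and 9.22% (5.53% higher, 3.69% lower). The glands were measured in bulk, so that fewer cells of a type and less RNA per cell cannot be told apart.

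Pools of a group correlated at 0.915 to 0.977 on CL and 0.911 to 0.987 on Affy. The deposited Affy intensities were uneven, with trimmed means of 150 and 141 in NOD T pools 2 and 3 and of 22.1 to 82.5 in the other 10 arrays, so that Affy results that involve NOD T can depend on the scaling. Cyp2j13, a cytochrome P450 gene taken as the check of the T label, was near background in all 6 P pools on CL and lay between 33.4 and 135 in the T pools of both strains. Fas was near background on CL in all 6 MRL/lpr pools and all 3 NOD P pools and read 1.30 to 1.45 in NOD T, so that it separates the strains under T only. H2-Ea, which NOD mice lack, was 137 to 191 in MRL/lpr P and 37.0 to 87.6 in NOD P on Affy (adjusted p = 0.0614). Under T its pools overlapped, at 54.2 to 144 in MRL/lpr and 12.7 to 67.2 in NOD mice (adjusted p = 0.244), so that it did not separate the strains there. Acinar markers were present, with 5 of 6 measured above the filter on CL and 7 of 7 on Affy.

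The ligands were not detected reliably. Shh, Ihh and Dhh encode the 3 mammalian Hedgehog proteins, of which Shh patterns many embryonic epithelia, Ihh acts in cartilage and gut, and Dhh is made by Sertoli and Schwann cells. All 3 CL spots were marked near background on all 12 arrays, with Shh between 0.0554 and 0.687, Ihh between 0.115 and 0.735 and Dhh between 0.0220 and 0.707. The Affy set for Shh lay under the floor on all 12 arrays, at 3.89 to 54.2.

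The Affy set for Ihh read 7.35, 34.2 and 18.8 in MRL/lpr P and 103, 145 and 9.03 in MRL/lpr T. It read 95.4, 135 and 39.4 in NOD P and 98.4, 32.7 and 14.2 in NOD T. Pools of each group spanned the floor except in MRL/lpr P, where all 3 were under it, and the T and P pools overlapped in both strains. The log2 change with T was 0.53 in MRL/lpr (SE 0.31, adjusted p = 0.347) and -0.30 in NOD mice (SE 0.31, adjusted p = 0.679).

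Of the pair of Affy sets for Dhh, the dimmer was under the floor on all 12 arrays. The brighter set read 97.0, 85.4 and 75.2 in MRL/lpr P and 107, 120 and 6.77 in MRL/lpr T, against 7.76, 9.68 and 17.6 in NOD P and 10.4, 5.33 and 21.6 in NOD T. Under P all MRL/lpr pools were above the floor and all NOD pools under it. The set passed the filter only through its MRL/lpr groups, so its strain values do not serve as support for a difference. The strain difference (NOD minus MRL/lpr) was -0.28 on the floored log2 scale (SE 0.25, adjusted p = 0.679). The methods' t-test, run on signals without log or floor, called it after Benjamini-Hochberg adjustment (adjusted p = 0.0474 over the 17891 Affy sets that passed the filter). Without MRL/lpr T pool 3, the low one, the difference under T went from -0.46 (adjusted p = 0.257) to -0.69 (adjusted p = 0.0439). Of 4 Schwann cell markers measured on Affy none was called between strains, and their summed level was 558 to 778 in MRL/lpr P and 476 to 793 in NOD P.

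**Figure D1:**
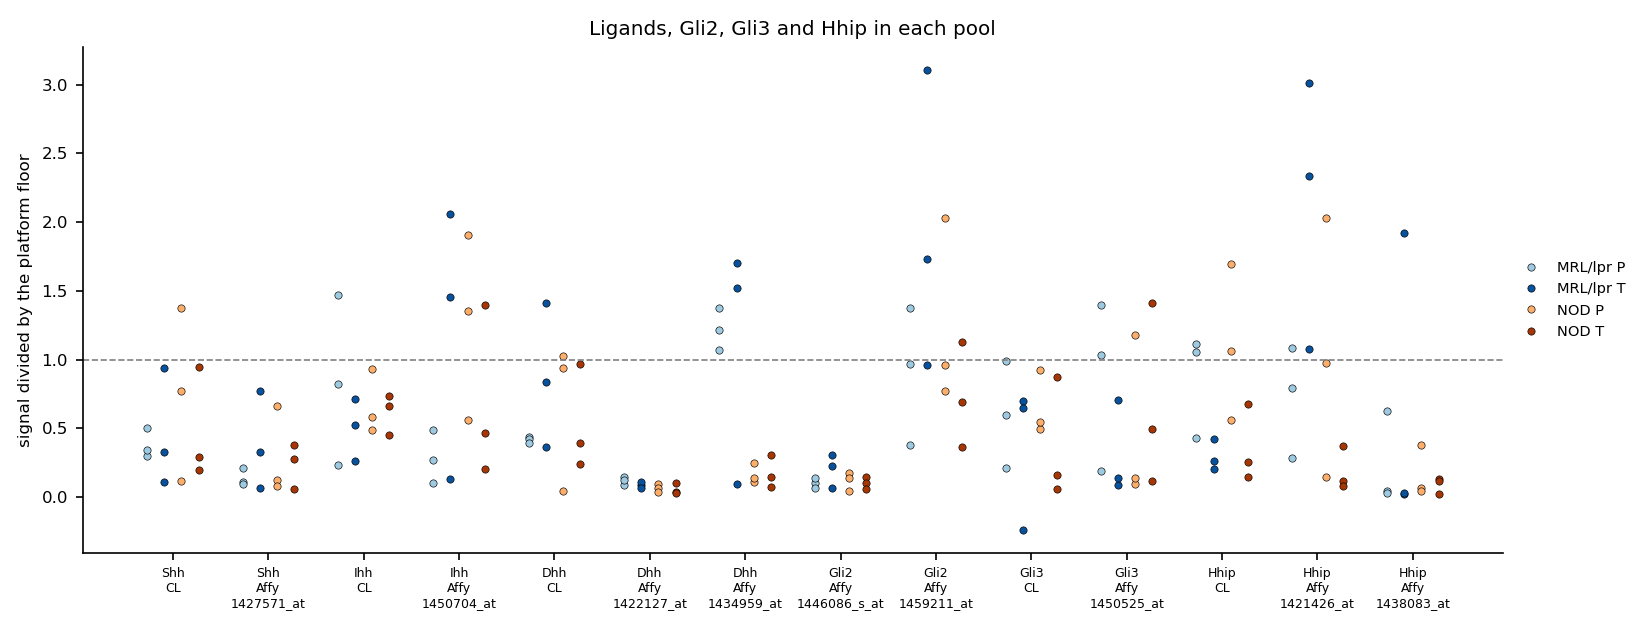
Signal of each pool divided by the floor of its platform (0.5 on CL, 70.5 on Affy) for every probe of the ligands, Gli2, Gli3 and Hhip, colored by group, with the floor as a dashed line. Most points lie below or close to the line, and the highest, a Gli2 and a Hhip pool, both of MRL/lpr T, reach 219 and 212 on Affy.

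Ptch1 was the member that stood out, on CL alone. The gene lies on chromosome 13 of GRCm38.p6, from 63508328 to 63573460, on the minus strand. Its CL probe read 1.08, 2.39 and 0.976 in MRL/lpr P and 96.3, 109 and 132 in MRL/lpr T. It read 2.03, 2.25 and 2.46 in NOD P and 102, 76.6 and 148 in NOD T. All 6 T pools were far above all 6 P pools, and 1 of the 3 MRL/lpr P spots was marked near background.

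The MRL/lpr mean went from 1.48 ± 0.790 to 113 ± 18.2, and the NOD mean went from 2.25 ± 0.214 to 109 ± 36.4 (SD, n = 3). As a log2 change this was 6.36 (SE 0.33) in MRL/lpr and 5.55 (SE 0.33) in NOD mice, rank 9 and rank 7 of 13614 CL probes ordered by their rise. The NOD change minus the MRL/lpr change was -0.81 (SE 0.47). From the raw spot intensities, background-corrected by normexp, the changes were 4.39 and 4.42, and their difference was 0.03.

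The CL levels of the strains differed little beside this. Under P the NOD level was higher by a log2 difference of 0.72 (SE 0.33, adjusted p = 0.226), and under T it was lower by 0.09 (SE 0.33, adjusted p = 0.921). MRL/lpr P pool 2 was the one that overlapped with the NOD P pools, and without it the difference under P was 1.13 (adjusted p = 0.0342).

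The Affy sets for Ptch1 showed no such rise. The brighter set was above the floor on all 12 arrays, at 356, 205 and 258 in MRL/lpr P and 158, 182 and 244 in MRL/lpr T. It read 543, 244 and 313 in NOD P and 328, 297 and 416 in NOD T. P and T pools overlapped in both strains, and the log2 change was -0.47 (SE 0.35) in MRL/lpr and -0.01 (SE 0.35) in NOD mice. On signals as deposited the changes were -0.96 and 0.74, where the medians of all sets were -0.26 and 0.62. Under T this set was higher in all NOD pools than in all MRL/lpr pools (log2 difference 0.84, SE 0.35, adjusted p = 0.143), and as deposited the difference was 2.73 (adjusted p = 0.00105), where the median of all sets was 1.52.

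The dimmer set is annotated to the same Ptch1 reference transcript as the CL probe, which makes it the closest counterpart. It read 44.1, 32.6 and 90.7 in MRL/lpr P, 9.47, 15.5 and 4.52 in MRL/lpr T, 6.65, 28.1 and 9.09 in NOD P, and 67.2 in the highest NOD T pool. Only MRL/lpr P pool 3 exceeded the floor, and no T pool did, although the CL spot was bright in the same pools. The set did not pass the filter on low signals and was not tested.

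**Figure D2:**
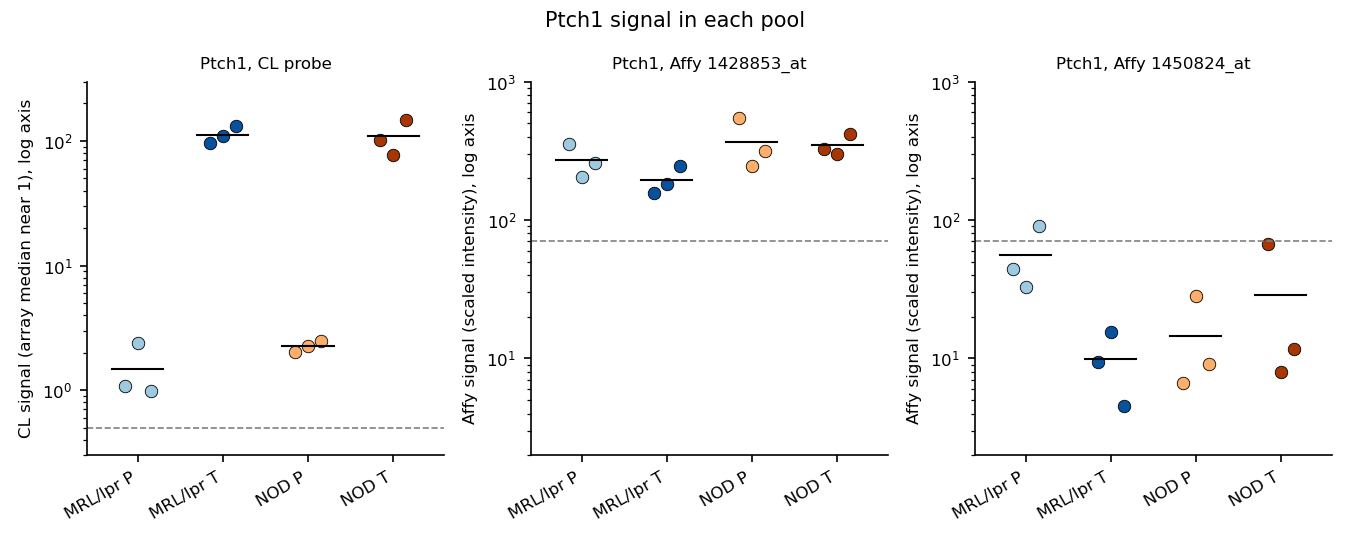
Ptch1 signal in each of 3 pools per group on a log axis, for the CL probe and both Affy probe sets. Lines mark group means and dashes the floor. The T pools of the CL probe sit at 76.6 to 148 against 0.976 to 2.46 under P, and the Affy sets show no rise.

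The promoter of Ptch1 is shown because the gene is a textbook transcriptional target of the pathway, and the stretch before its start is where Gli proteins and, with T, the androgen receptor could be looked for. The 250 bases before the start were taken from RefSeq (GRCm38.p6). Capitals mark the first stretch found among those closest to the GLI consensus GACCACCCA on either strand.
Ptch1 promoter, chr13:63565736-63565985, minus strand: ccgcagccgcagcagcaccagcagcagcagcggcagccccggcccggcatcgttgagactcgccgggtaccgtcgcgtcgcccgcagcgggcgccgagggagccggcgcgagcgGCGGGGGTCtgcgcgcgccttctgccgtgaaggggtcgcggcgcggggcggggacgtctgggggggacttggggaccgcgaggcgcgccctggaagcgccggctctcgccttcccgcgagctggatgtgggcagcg

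The start used in that table lies inside the annotated span of the gene, so the window belongs to 1 of its starts. The marked stretch, on the opposite strand, began 136 bases before the start and differed from the consensus at 3 positions. Others in this window tied with it, and 98.6% of 32851 mouse windows hold a stretch at least as close. Windows were found for 7 of the 9 members, and for Shh and Gli1 none was used. None of the 7 held GACCACCCA, which 0.225% of all windows hold, and 5 of the 7 held a stretch with at most 2 mismatches, as did 51.8% of all windows. None held the androgen response element, an inverted repeat of AGAACA (0.00913% of windows), or the half-site AGAACA alone (16.1% of windows). All motifs were searched on both strands, the half-site overlaps the full element, and the window leaves out distal sites.

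Smo, the signal transducer that Ptch1 restrains, was measured well on Affy only. The brighter of a pair of sets made from the same source transcript read 614, 400 and 567 in NOD P and 281, 197 and 191 in NOD T. Every T pool was below every P pool in NOD mice. In MRL/lpr it read 524, 716 and 479 under P and 502, 358 and 506 under T, which overlapped.

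The Smo level in NOD mice fell by 1.24 on the log2 scale (SE 0.29, adjusted p = 0.00912 by limma), where 3.69% of Affy sets were called lower and 12.9% had all T pools below all P pools. In MRL/lpr the change was -0.33 (SE 0.29, adjusted p = 0.546), and the difference between strains in this change, -0.91 (SE 0.40), did not pass (adjusted p = 0.273). The dimmer set read 397, 392 and 446 in NOD P and 335, 257 and 224 in NOD T, again with no overlap, and did not pass (log2 change -0.62, SE 0.27, adjusted p = 0.193). The CL spot for Smo was near background on all 12 arrays, at 0.261 to 1.07, and gave log2 changes with T of 0.15 for MRL/lpr (adjusted p = 0.804) and -0.18 for NOD glands (adjusted p = 0.703).

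Under T the Smo level of the brighter set was also lower in NOD than in MRL/lpr glands, by a log2 difference of -1.03 (SE 0.29, adjusted p = 0.0283, with 5.22% of sets called lower), and the NOD T pools enter both comparisons. Both Smo calls were lost on signals as deposited. With each array scaled by its own median, the call for T in NOD mice was kept and that between strains was lost (adjusted p = 0.0909). On signals as deposited, where the median of all sets rose by 0.62 with T in NOD mice, the change in NOD mice was -0.49 (adjusted p = 0.542). The difference under T became 0.85 (adjusted p = 0.156), where the median of all sets was 1.52. The call for T in NOD mice was also lost with each strain fitted alone (adjusted p = 0.0791) and without NOD P pool 1 (-1.12, adjusted p = 0.0592). The call between strains was lost without MRL/lpr T pool 1 or 3 or NOD T pool 2 or 3 (adjusted p = 0.0772 to 0.0923). For the dimmer set the difference under T was -0.74 (adjusted p = 0.0912), and -0.90 (adjusted p = 0.0347) without NOD T pool 1.

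In these NOD pools several cell type markers moved as well. On Affy 5 of 7 measured leukocyte markers were called higher with T and their summed level went from 4472 to 5223 under P to 19633 to 24012 under T, with 1 marker under the floor in all NOD P pools and none in NOD T. Myoepithelial markers were called lower in 3 of 6 cases, with sums of 5829 to 6294 under P and 2475 to 2708 under T. Acinar markers were called lower in 4 of 7 cases, with sums of 121249 to 180498 under P and 63994 to 82692 under T. The part of these cells in the Smo result was not tested.

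Gli1, the Gli factor that is itself induced by the pathway and the usual readout of it, was well above background on CL. Its probe read 3.74, 4.59 and 4.51 in NOD P and 5.86, 8.58 and 7.76 in NOD T. In MRL/lpr it read 8.75, 8.66 and 5.83 under P and 6.08, 5.97 and 7.73 under T. The NOD T pools were all above the NOD P pools, while in MRL/lpr the groups overlapped.

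Gli1 rose by a log2 change of 0.78 with T in NOD mice (SE 0.22, adjusted p = 0.0334 by limma), a 1.71-fold change beside the 46.9-fold change of the CL Ptch1 probe in the same pools. On CL 7.87% of probes were called higher in NOD mice and 13.7% had all T pools above all P pools. In MRL/lpr, where the CL Ptch1 probe changed 82.1-fold, the Gli1 change was -0.22 (SE 0.22, 95% interval -0.71 to 0.27, adjusted p = 0.618). The difference between the strains in this change was 1.00 (SE 0.32, adjusted p = 0.0833), and 1.19 (adjusted p = 0.0456) without MRL/lpr P pool 3.

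Gli1 also differed between strains under P. The NOD P pools lay below all MRL/lpr P pools, with a log2 difference of -0.84 (SE 0.22, adjusted p = 0.0362, with 4.88% of CL probes called lower), and under T the difference was 0.16 (SE 0.22, adjusted p = 0.732). The NOD P pools enter both this comparison and the T effect in NOD mice. Both calls were close to the threshold. The T effect in NOD mice was lost without any single NOD P pool, without NOD T pool 2 or without NOD T pool 3 (adjusted p = 0.0537 to 0.121), and the strain difference under P was lost without MRL/lpr P pool 1 or 2 or any NOD P pool (adjusted p = 0.0570 to 0.141). With the pool number as a replicate block the adjusted p values were 0.0549 and 0.0611.

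On Affy the Gli1 set read between 5.67 and 120, was under the floor on 9 of 12 arrays and was not tested, so there was no second measurement of the NOD change. On CL 6 of 7 measured leukocyte markers were called higher with T in NOD mice, with sums of 34.0 to 42.4 under P and 101 to 177 under T, and 1 marker was under the floor in all NOD P pools. Fibroblast markers, from a cell type that responds to Hedgehog ligands in many organs, were called higher in 3 of 7 cases, the collagens Col1a1, Col1a2 and Col3a1. The summed fibroblast level was 72.0 to 83.8 under P and 112 to 144 under T, of which Col3a1 alone had a mean of 29.9 and 86.4. The other 4 markers were not called, with log2 changes of -0.23 for Pdgfra, -0.49 for Dcn, -0.05 for Lum and -0.76 for Dpt, and the median of the list was -0.05. Under P 5 of 7 fibroblast markers were called lower in NOD than in MRL/lpr glands, where their sums were 136 to 184. Myoepithelial markers were called lower with T in NOD mice in 4 of 5 cases (sums 58.5 to 71.6 under P and at most 33.3 under T). The part of these cells in the Gli1 result was not tested.

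**Figure D3:**
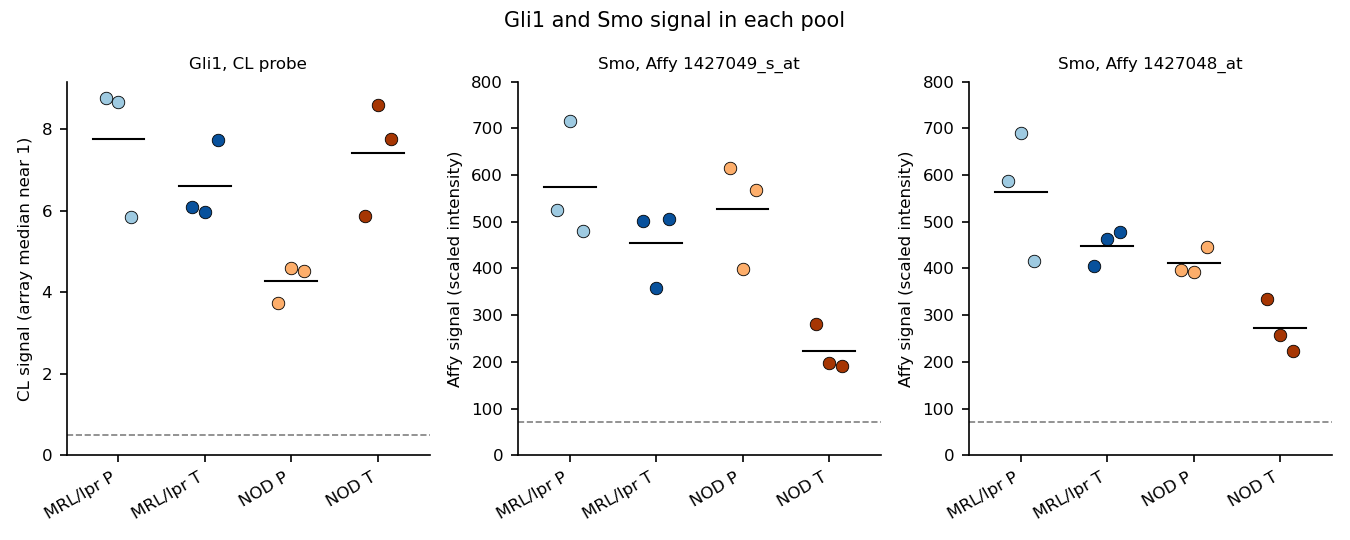
Gli1 on CL and both Smo sets on Affy (the brighter in the middle) in each of 3 pools per group, with group means as lines and the floor dashed. Gli1 was 3.74 to 4.59 in NOD P and 5.86 to 8.58 in NOD T, and the brighter Smo set was 400 to 614 in NOD P and 191 to 281 in NOD T.

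Gli2, the main activator among the Gli factors, had no CL probe listed. The dimmer of its Affy sets was under the floor on all 12 arrays. The brighter read 97.0, 68.3 and 26.5 in MRL/lpr P and 67.9, 122 and 219 in MRL/lpr T, and 143, 67.7 and 54.6 in NOD P and 25.5, 48.7 and 79.6 in NOD T. The groups overlapped in both strains, and the log2 changes were 0.66 (SE 0.37, adjusted p = 0.334) in MRL/lpr and -0.28 (SE 0.37, adjusted p = 0.767) in NOD mice. Gli3, mostly a repressor in the absence of ligand, was under the floor on all 12 CL arrays and on 8 of 12 Affy arrays, where its highest signal was 99.6.

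Hhip, the membrane-bound inhibitor that binds Hedgehog ligands, was near background on all 12 CL arrays. The CL signal was 0.556, 0.527 and 0.215 in MRL/lpr P and 0.102, 0.133 and 0.209 in MRL/lpr T, and in NOD mice 0.530, 0.281 and 0.846 under P and 0.0739, 0.338 and 0.126 under T. No T pool exceeded the CL floor in either strain. The log2 changes were -0.08 (SE 0.17, adjusted p = 0.859) and -0.28 (SE 0.17, adjusted p = 0.316).

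On Affy the brighter Hhip set read 55.8, 20.2 and 76.3 in MRL/lpr P and 75.8, 165 and 212 in MRL/lpr T. In NOD mice it read 143, 68.7 and 10.3 under P and 8.10, 5.67 and 26.2 under T. All MRL/lpr T pools were above the floor and all NOD T pools under it. The log2 change was 0.93 in MRL/lpr (SE 0.36, adjusted p = 0.135) and -0.34 in NOD mice (SE 0.36, adjusted p = 0.682), and the strain difference under T was -0.97 (SE 0.36, adjusted p = 0.0954). MRL/lpr T pool 1 was the low one, and without it the change in MRL/lpr was 1.37 (adjusted p = 0.0224), the difference between strains in this change was -1.71 (adjusted p = 0.0457) and that under T -1.41 (adjusted p = 0.0158). Over the other single pools left out, the adjusted p of these values reached 0.372, 0.434 and 0.308. Only this 1 alternative called the change in MRL/lpr, and 21 did not. With the floor set lower, at 0.5 times its value, the difference under T was -1.97 (adjusted p = 0.0350). The dimmer set was under the floor on 11 of 12 arrays.

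**Figure D4:**
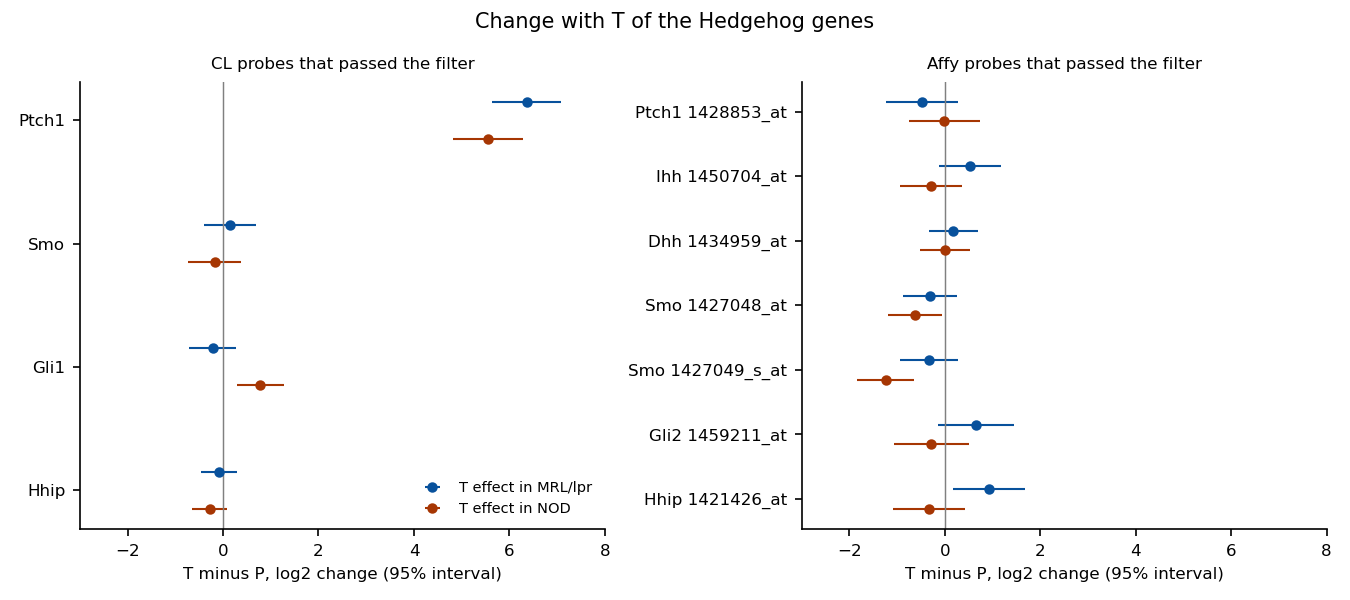
Log2 change with T (T minus P) of every member probe that passed the filter on low signals, for CL and Affy and for each strain, with 95% intervals from limma. The CL Ptch1 probe lies at 6.36 and 5.55, and all other points lie between -1.24 and 0.93.

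Of the 9 members, 4 passed the filter on CL (Ptch1, Smo, Gli1 and Hhip) and 6 on Affy (Ptch1, Ihh, Dhh, Smo, Gli2 and Hhip). Ptch1, Smo and Hhip passed on both. Ptch1 rose on CL and not on Affy. The CL spots of Smo and Hhip were near background on all 12 arrays, so the platforms cannot be compared on these genes. For both Affy sets of Smo all NOD T pools lay below all NOD P pools, with ratios of means of 0.423 and 0.660. For the brighter set this was given above beside 12.9% of all Affy sets. On CL the ratio was 0.695, but the highest NOD T spot read 0.4425 and the lowest NOD P spot 0.4430. Both were under the floor of 0.5, so the CL spot does not add a second measurement. Besides Ptch1, 1 of 3 tested members was called for T in NOD mice on CL and 1 of 5 on Affy, against 16.5% and 9.22% of all probes, and in MRL/lpr none was called, against 12.5% and 6.9%. For the difference between strains in the T effect none was called on either platform, against 8.04% on CL and 3.92% on Affy. Between strains under P, 1 was called on CL (Gli1) and none on Affy, against 9.54% and 5.34%. Under T none was called on CL and 1 on Affy (Smo), against 12.4% and 10.6%.

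Further genes of the pathway were taken as 2 lists. The first held 39 components that process ligand, assist the receptor or pass on the signal, of which 22 passed the filter on CL and 24 on Affy. In MRL/lpr 1 was called lower on CL and none higher, and none was called on Affy. In NOD mice 2 were called lower on CL, and on Affy 1 was called higher and 1 lower. Over all probes 12.5% on CL and 6.9% on Affy were called for T in MRL/lpr, and 16.5% and 9.22% in NOD mice. On CL the median log2 change of the list was -0.31 for MRL/lpr and -0.17 for NOD glands, where all probes had -0.02 and -0.10. On Affy it was 0.02 and 0.03, where all probes had 0.02 and 0.

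Disp2, a relative of the transporter that releases Hedgehog ligands, fell with T in MRL/lpr from 1.39, 1.00 and 1.65 to 0.928, 0.430 and 0.284 (log2 change -1.10, adjusted p = 0.0143). That call was lost in 8 alternatives and kept in 13. Hhat, the enzyme that palmitoylates Hedgehog ligands, fell in NOD mice from 7.79, 8.16 and 4.45 to 2.14, 1.93 and 1.00 (log2 change -2.03, SE 0.34, adjusted p = 0.00132), and in MRL/lpr its change was -0.67 (adjusted p = 0.251). The Affy set for Hhat read 7.35 to 107 and did not pass the filter.

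Spop, the adaptor that targets Gli2 and Gli3 for degradation, was the component called in the same direction on both platforms. On CL it fell in NOD mice from 26.3, 32.4 and 33.4 to 18.7, 16.8 and 18.6 (log2 change -0.76, adjusted p = 0.0454), and on Affy the log2 change was -0.75 (adjusted p = 0.0420). Both adjusted p values were just under the threshold. The call was lost in 15 alternatives and kept in 6 on CL, and lost in 18 and kept in 4 on Affy. In MRL/lpr the CL change of Spop was similar and not called (-0.69, adjusted p = 0.0824). The NOD change minus the MRL/lpr change was -0.07 (adjusted p = 0.925). Arrb2, an adaptor that carries Smo to the cilium and serves many other receptors, including those of leukocytes, rose on Affy in NOD mice from 128, 141 and 140 to 511, 615 and 438 (log2 change 1.92, SE 0.31, adjusted p = 0.000511), while the signals of the CL spot used here were near the floor (0.50, adjusted p = 0.300). The paper lists this gene as raised by T in NOD glands on CL, by a larger fold than this spot gave.

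The second list held 24 genes known as Hedgehog targets from other mouse tissues, of which 16 passed on CL and 18 on Affy. For MRL/lpr glands the calls were 1 higher and 2 lower on CL, and none higher and 1 lower on Affy. For NOD glands they were 1 higher and 3 lower on CL, and 2 higher and 1 lower on Affy. The shares of all probes called were 12.5% on CL and 6.9% on Affy for MRL/lpr, and 16.5% and 9.22% for NOD glands. On CL the list's median log2 change was -0.04 for MRL/lpr and -0.06 for NOD glands, and on Affy -0.04 and 0.

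Snai1, a repressor of epithelial genes, was the 1 target called higher with T in both strains on CL, where the Ptch1 probe also rose. It went from 0.997, 0.866 and 0.800 to 2.37, 2.38 and 2.48 in MRL/lpr (log2 change 1.45, SE 0.24, adjusted p = 0.00195). In NOD glands it went from 0.773, 1.47 and 1.13 to 2.37, 2.53 and 3.19 (log2 change 1.30, SE 0.24, adjusted p = 0.00289). No T pool of Snai1 overlapped with a P pool. Ccne1, another gene of the list, rose on CL without being called. Its log2 change was 0.61 in MRL/lpr (adjusted p = 0.143) and 0.72 in NOD glands (adjusted p = 0.0671). On Affy the Snai1 set was mostly under the floor. Its change there was 0.54 for MRL/lpr (adjusted p = 0.235) and 0 for NOD glands, where no pool reached the floor.

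Foxa2, a target of Shh in the embryonic floor plate and a regulator of epithelial secretory genes, fell in NOD mice on CL from 18.1, 20.0 and 22.6 to 1.40, 1.71 and 2.19 (log2 change -3.54, SE 0.21, adjusted p = 7.28e-07). In MRL/lpr the log2 change was -0.40 (adjusted p = 0.271). The Affy set for Foxa2 read 1.67 to 108 and did not pass the filter. Osr2, a zinc finger factor of craniofacial mesenchyme, fell on CL in both strains, by 0.97 in MRL/lpr (adjusted p = 0.0473) and by 1.16 in NOD mice (adjusted p = 0.0159) on the log2 scale, and on Affy it fell by 1.35 in MRL/lpr (adjusted p = 0.0147). The CL call for MRL/lpr was lost in 14 alternatives and kept in 7, and that for NOD mice was lost in 4 and kept in 17. Foxc2, a mesenchymal forkhead factor, fell by 0.61 on the log2 scale in NOD mice on CL (adjusted p = 0.0496), a call lost in 16 alternatives and kept in 5. Sfrp1, a secreted Wnt inhibitor, fell by 0.92 in NOD mice on Affy, from 487, 519 and 495 to 228, 304 and 268 (adjusted p = 0.0330). Its call was lost in 9 alternatives and kept in 13.

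The list also holds cell cycle genes. Ccnd2, a D-type cyclin, fell in MRL/lpr on CL from 2.50, 2.54 and 1.83 to 1.53, 1.37 and 1.43 (log2 change -0.65, adjusted p = 0.0444), and it rose in NOD mice on Affy from 365, 293 and 270 to 374, 754 and 737 (log2 change 0.95, adjusted p = 0.0393). Ccnd1, its relative, rose in NOD mice on Affy from 573, 589 and 220 to 553, 1218 and 1945, where pool 1 of T lay within the P pools (log2 change 1.38, adjusted p = 0.0337) and not on CL (0.08, adjusted p = 0.879). The Ccnd1 and Ccnd2 calls in NOD mice on Affy were lost in 17 and 19 alternatives and kept in 5 and 3. The Ccnd2 call in MRL/lpr on CL was lost in 13 and kept in 8. Both cyclins are used by leukocytes, whose markers rose in the same pools, and the part of these cells was not tested.

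Some components were called between strains. On CL 1 of 22 was higher and 2 lower under P, and 1 higher under T, beside 9.54% and 12.4% of all probes. On Affy 1 of 24 was lower under P and 1 higher under T, beside 5.34% and 10.6% of all sets. The same pools enter the T effects of these genes. Under P, Hhat was higher in NOD than in MRL/lpr glands on CL (log2 difference 1.36, adjusted p = 0.0267), and Disp2 (-1.30, adjusted p = 0.00738) and Gas1, a co-receptor of Hedgehog ligands (-0.81, adjusted p = 0.0444), were lower. Under T, Cdon, another co-receptor, was higher in NOD glands on CL, at 2.50, 3.00 and 3.33 against 2.02, 1.69 and 1.52 (log2 difference 0.75, adjusted p = 0.0319). On Affy neither Hhat nor Cdon passed the filter, Disp2 had no set listed, and Gas1 had a log2 difference of -1.67 under P (adjusted p = 0.112). Arrb2 was called between strains on Affy in both comparisons, lower in NOD glands under P (log2 difference -1.19, adjusted p = 0.0287) and higher under T (1.47, adjusted p = 0.00555). Of the targets, 2 of 16 on CL were lower in NOD glands under P (Ccnd2 and Osr1) and 3 under T (Ccnd1, Foxa2 and Osr2). On Affy 3 of 18 were lower under P (Ccnd1, Ccnd2 and Osr2) and 1 under T (Mycn). No target was called higher.

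The genes whose pattern was most like the CL Ptch1 probe lay outside the pathway. Over the 12 CL arrays Pearson's r with Ptch1, as a description over 9223 named probes, was 0.992 for Trpm5, a channel used in taste receptor cells, 0.990 for Stk31, a kinase of germ cells, 0.985 for Pou2af1, a B cell coactivator, 0.984 for Brf2, a factor of RNA polymerase III, and 0.984 for Foxp3, the factor of regulatory T cells. These arrays fall into P and T groups, which all the points share. Trpm5 read 0.654 to 0.839 in MRL/lpr P, where all spots were near background, and 67.7 to 142 in MRL/lpr T. Foxp3 read 1.63 to 1.88 and 15.3 to 25.7 in the same groups.

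No Affy set was found for Brf2, and the brightest set of each of the other 4 was not called for T in either strain. The log2 change with T was 0.07 and 0.21 for Trpm5, 0.29 and -0.06 for Stk31, and 0.35 and 0 for Foxp3 in MRL/lpr and NOD mice. The 0 of Foxp3 was set by the floor, since its signals were 3.87 to 6.06 in NOD P and 45.2 to 66.2 in NOD T, which did not overlap and all lay under it. That of Pou2af1 was -1.14 (adjusted p = 0.128) and 1.30 (adjusted p = 0.0714), with NOD pools that did not overlap, at 170 to 304 under P and 383 to 716 under T. Its CL spots, near background in all P pools, read 13.1 to 27.2 and 12.5 to 18.0 under T.

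**Figure D5:**
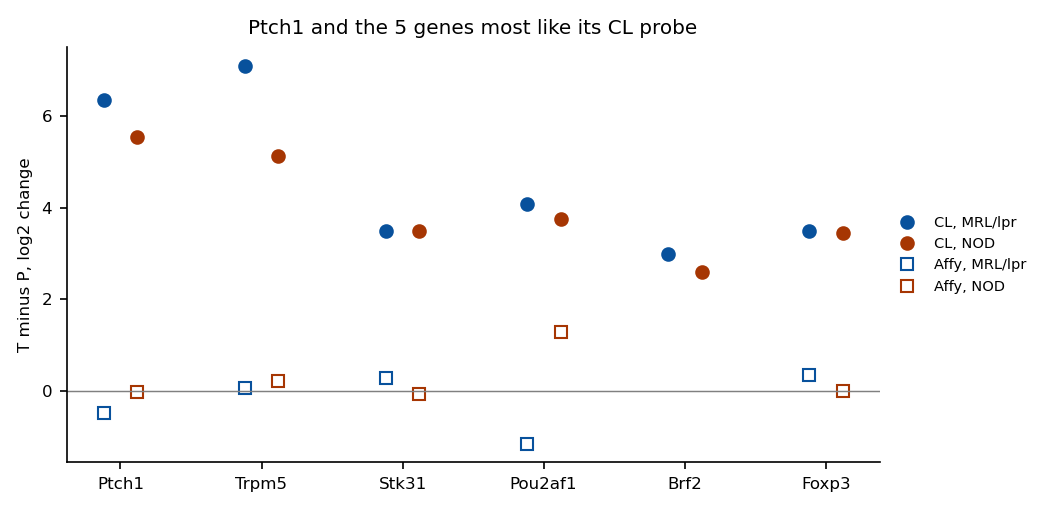
Log2 change with T of Ptch1 and the 5 genes most like its CL probe, for each platform and strain (filled circles CL, open squares Affy). CL points lie between 2.61 and 7.09 and Affy points between -1.14 and 1.30. The Affy point of Foxp3 in NOD mice was set by the floor. The P spots of Stk31 and Pou2af1, and of Trpm5 in MRL/lpr, were near background on CL.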

How the data were processed

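The authors deposited CL values as spot intensities divided by each array's median by the CodeLink software, with quality marks, and Affy values as probe set intensities from Affymetrix software. The methods give a scaling of Affy arrays to a trimmed mean of 500. The deposited intensities were not at that mean, so each array was scaled to it here, leaving out 2% at each end.

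Marked bad CL spots were left out, and saturated and near-background spots were kept. Probes entered when at least 1 group mean was above the floor and, a condition added after the data were seen, at least 2 pools of each group had a value. For each platform the 12 arrays were fitted as 4 group means with lmFit and eBayes (trend) of limma 3.58.1 under R 4.3.3, with Benjamini-Hochberg adjustment over all probes. Contrasts were T minus P in each strain, their difference, and NOD minus MRL/lpr under P and under T. For a gene the brightest probe was counted. Symbols came from the platform annotation, which can be old: 11377 CL and 20393 Affy probes had 1 symbol, 6063 and 1606 had none listed, and 691 Affy sets with several were left unnamed. Of the CL arrays' 20287 spots 17440 were in the value table and 2847 were not used.

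The members and gene lists were chosen with earlier results of these data known. The text names all members, up to 4 called genes of each list per platform and strain with the smallest adjusted p, the 5 genes most like the CL Ptch1 probe, and Cyp2j13, Fas and H2-Ea as checks of the labels. List genes that differed between strains, and Ccne1, were named after their values were seen. Alternatives were other floors, no filter, quantile normalization, other scalings, normexp with an offset of 50 on raw CL intensities, each strain fitted alone, a replicate block, the methods' t-test and leaving out each pool.

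On simulated data 49% of CL and 22% of Affy probes planted at a log2 change of 1 in MRL/lpr were found, and 96% and 95% at 3, with 3.33% and 11.4% of calls false. Arrays carry no depth, and 3 pools per group limit the precision. Per the methods 3 separate pooled preparations were made per group, and p-values measure the spread between these pools. Python 3.11.15, pandas 2.3.3, numpy 2.4.6, scipy 1.17.1 and matplotlib 3.10.9 were used.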

Additional observations from a re-analysis of the deposited data

Results flagged for a closer look

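Among the members tested, Ptch1 left out, none had a T effect that differed between the strains past the threshold. Of the named list genes, 3 did. These genes were named for a T effect called in at least 1 strain in the same pools, which favors such a difference. Over all probes 8.04% on CL and 3.92% on Affy passed for this difference. The NOD minus MRL/lpr difference of the log2 change was 1.13 for Ccnd2 on CL (SE 0.27, adjusted p = 0.0239) and 1.88 on Affy (SE 0.39, adjusted p = 0.00982), with opposite directions in the strains on both platforms. For Foxa2 on CL it was -3.14 (SE 0.29, adjusted p = 0.000166). For Arrb2 on Affy it was 2.66 (SE 0.44, adjusted p = 0.00140). All 4 values passed an interaction term of limma over all probes of the platform, and the Foxa2, Arrb2 and Affy Ccnd2 differences stayed past the threshold in every alternative in which the term was fitted. The CL difference of Ccnd2 was lost without MRL/lpr P pool 1 or 2, MRL/lpr T pool 2, NOD P pool 1 or NOD T pool 2 (adjusted p = 0.0509 to 0.0658). Under P, Ccnd2 was called lower in NOD than in MRL/lpr glands on both platforms (CL log2 difference -0.89, adjusted p = 0.0121 by limma). Under T it was called on neither (CL 0.25, adjusted p = 0.474). The same P pools enter the T effects of Ccnd2 and their difference.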

How the results depend on the processing

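Of 1130 values of members under alternatives, 1083 kept their side of the threshold, or for the Ptch1 T effects stayed within 1 SD of the pools. Of these, 37 changed sign without being called in either setting. Members called besides Ptch1 numbered 1 for T in NOD mice on CL and fell to 0 with each strain fitted alone, with the replicate block and with the methods' t-test after Benjamini-Hochberg, and lay between 0 and 1 over the single pools left out. For the strain difference under P on CL, 1 fell to 0 with the replicate block and with the adjusted t-test (0 to 1 over pools left out). On Affy the 1 called for T in NOD mice fell to 0 as deposited, with each strain alone and with the adjusted t-test (0 to 1 over pools left out). The 1 called between strains under T on Affy fell to 0 as deposited, with own-median scaling and with the adjusted t-test, became 2 with the floor at 0.5 times its value and with the unadjusted t-test, and was 0 to 1 over pools left out. Under P the Affy count went from 0 to 1 with the t-test, adjusted or not. Leaving out a pool moved 0 to 1 at most for T in MRL/lpr on Affy and for the difference of T effects on CL and Affy. The 1 reversal was Smo between strains under T on deposited Affy signals, 0.85, by the deposited scale itself.

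As deposited, 48 Affy sets were called higher and 47 lower for T in MRL/lpr, against 594 and 640 scaled, and 12937 higher and 36 lower between strains under T, against 964 and 934. With own-median scaling 70.7% of the calls between strains under T were higher, against 50.8%. Of 416 values of named list genes 146 lost their call and none reversed. Of 172 list counts 83 moved by over 1.5 times. Same-numbered pools shared only a number: their deviations correlated at -0.0734 to 0.0866 on CL and -0.0686 to 0.106 on Affy. With the number as a replicate block, Gli1 lost both calls on CL and no other member call changed. Signal over background limits the ligands, Gli2, Gli3 and Hhip, most of whose signals were at or under the floor.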
